A study of Caenorhabditis elegans with 2 samples.

Results

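The clec genes of Caenorhabditis elegans, which encode proteins with C-type lectin-like domains, were examined for sites occupied by a tagged nuclear hormone receptor, NHR-42. All protein-coding genes of the Ensembl WBcel235 annotation whose symbol begins with clec- were taken. This gave 240 of 19973 protein-coding genes, with 237 different symbols because clec-15, clec-209 and clec-249 each name 2 gene identifiers. Chromatin came from whole animals of strain OP351 at the L4 larval stage, 50 h old, grown from L1 larvae that had been starved after bleaching. The animals carried the transgene wgIs351, in which nhr-42 is joined to TY1, EGFP and 3xFLAG and which also holds unc-119(+), in an unc-119(tm4063) background. Fragments of 200 to 800 bp from 2 biological replicates were precipitated with an antibody against GFP and sequenced. Both replicates form 1 group, so no conditions were compared, and an untagged strain or input was not analysed here. The labels state neither the promoter of the transgene nor the tissues that express it, and whole animals pool all tissues.

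C-type lectin-like proteins carry a fold first described in animal lectins that bind sugars in the presence of calcium. The family is large in nematodes, many members are secreted, and most have no assigned ligand. Several are made in the intestine and change in expression when worms meet bacterial pathogens, so the family is often treated as part of the innate immune repertoire. Nuclear hormone receptors are transcription factors that many animals use to couple small molecules to gene expression, and the question addressed by such an experiment is which genes the receptor lies beside.

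A peak was counted for a gene when its summit, the position of highest signal, was no more than 1000 bp upstream and 200 bp downstream of an annotated 5′ end, here called the promoter window. Positions are given relative to that end, with negative values upstream. The authors deposited thresholded peak lists, in which every peak has a score of at least 830, and longer ranked lists that also hold weaker candidates. The score is the irreproducible discovery rate (IDR), a measure of how poorly a peak repeats, scaled so that 830 stands for an IDR of 0.01 and 1000 is the upper limit. Each replicate's lists come from its own alignments, so their scores do not measure repetition between the replicates. The signal of a peak is the authors' own value and has no stated unit. The lists do not give the read depth, and the intervals printed with shares reflect only the number of genes counted. Replicate signals are those of the strongest summit in the window unless another is named.

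The sequences under the summits of the 3 clec genes in the conservative series list are shown first, because each lay in a different setting, followed by that of clec-80, which scored highest in the conservative ranked list among the clec genes in no thresholded list. Each is 151 bases of WBcel235 (RefSeq) centred on the summit, read on the strand of the clec gene. Capitals mark letters of a tRNA promoter element in the clec-126 sequence and a direct repeat in the clec-145 sequence. The positions are chrV:14468687-14468837 (plus strand) for clec-57, chrII:3519192-3519342 (plus) for clec-126, chrII:13591200-13591350 (minus) for clec-145 and chrIV:2823297-2823447 (plus) for clec-80.

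clec-57: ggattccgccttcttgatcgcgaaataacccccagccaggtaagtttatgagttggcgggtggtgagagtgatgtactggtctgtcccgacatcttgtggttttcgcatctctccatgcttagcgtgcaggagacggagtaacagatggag

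clec-126: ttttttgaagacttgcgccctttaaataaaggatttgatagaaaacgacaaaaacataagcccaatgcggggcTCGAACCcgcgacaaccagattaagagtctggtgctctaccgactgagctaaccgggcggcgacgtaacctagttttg

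clec-145: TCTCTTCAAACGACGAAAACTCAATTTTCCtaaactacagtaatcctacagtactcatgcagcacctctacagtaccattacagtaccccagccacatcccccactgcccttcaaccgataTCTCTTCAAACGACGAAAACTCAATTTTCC

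clec-80: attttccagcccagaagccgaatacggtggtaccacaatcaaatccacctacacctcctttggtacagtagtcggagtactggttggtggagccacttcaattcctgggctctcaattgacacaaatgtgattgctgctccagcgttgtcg

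Few clec genes had a promoter peak. In the conservative list, clec-57, clec-126 and clec-145 had a summit in the window, 3 of 240 genes (1.25%, exact 95% interval 0.259 to 3.61%), where 4.43% of all protein-coding genes did. The other series list also gave 3 genes, with clec-104 in place of clec-126, against 4.87% of all genes. Replicate 1 on its own gave clec-57, clec-126 and clec-104, against a background of 3.10%. Replicate 2 on its own gave none, against 2.11% of all genes, and a count of 0 in 240 allows a share of up to 1.53% by the exact interval. In either replicate there were thus 3 clec genes (background 3.53%) and in both there were 0 (background 1.68%). Over the 4 thresholded lists, 4 of 240 clec genes appeared at least once (1.67%), against 5.52% of all genes. In each of these lists the share of clec genes was below that of all genes. For 3 of 240 genes, however, the exact interval of 0.259 to 3.61% holds the backgrounds of replicate 1 (3.10%) and of either replicate (3.53%). All the lists come from the same 2 replicates, so their agreement is not independent repetition. No test of the family was made, and clec genes that lie close together are not independent of each other.

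The peak at clec-57 (WBGene00008594) was the strongest of the family. Its summit lay at −469 bp, in intergenic sequence on V, 16 bp from the non-coding RNA gene F08H9.13. The signal was 106 in both series lists, 55.6 in replicate 1 and 38.9 in replicate 2. The scores were 1000 in both series lists and in replicate 1 but 326 in replicate 2, so replicate 2 had the peak below the threshold. In the conservative list it was number 660 of 1627 by signal. The window of srz-97, which belongs to the srz family of chemoreceptor genes, held the same summit. The summit sequence occurred in 1 copy in the genome, counted as the median over its 24-mers.

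The peak at clec-126 (WBGene00021117) lay inside a tRNA gene. The summit was at −227 bp from clec-126 and within WBGene00023161, which runs from 3519250 to 3519322 on the minus strand of II and is annotated by RefSeq as tRNA-Lys. The letters TCGAACC in capitals above are, on the other strand, the start of the B box, the internal promoter element that tRNA genes offer to RNA polymerase III. The signal was 79.2 in the series lists, 52.2 in replicate 1 and 39 in replicate 2. The score was 1000 in the conservative list and 914 in replicate 1. In replicate 2 the same summit scored 43, and the other ranked series list gave a best score of 638, so both left it below the threshold. The 24-mers of this window had a median of 3 genomic copies. Of the 884 genes with a conservative promoter summit, 49 (5.54%) had it within 200 bp of a tRNA gene. Among the 3 clec genes, clec-126 was the only such case.

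The peak at clec-145 (WBGene00013013) lay in the part of II that begins at 13.4 Mb, where peaks of this experiment are dense. The summit was at −714 bp from clec-145, in an intron of the neighbouring clec-146, which is read in the same direction. The signal was 78.7 in the series lists, 36.6 in replicate 1 and 42.3 in replicate 2. The scores were 935 and 940 in the series lists and only 137 and 656 in the replicates, so neither replicate passed alone. The first 30 bases of the printed window returned, letter for letter, as its last 30 bases (starts 1 and 122, counted from 1 at the left end on the plus strand). The median copy number of its 24-mers was 2.

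The peak at clec-104 (WBGene00012480) passed in the other series list and in replicate 1. Its summit lay at −910 bp from clec-104 and fell in the window of ciao-1 as well, a gene of cytosolic iron-sulphur protein assembly. The signal was 81.6 in the series lists, 50.8 in replicate 1 and 29.5 in replicate 2. The scores were 974 in the other series list and 840 in replicate 1 but 715 in the conservative ranked list and 120 in replicate 2. By signal it stood above clec-126 and clec-145, yet the conservative list left it out.

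The 3 clec genes with the best scores in replicate 2 were not those called in replicate 1, though clec-145 was in both series lists. The best scores in replicate 2 were 656 at clec-145, 577 at clec-27 and 557 at clec-212. They were followed by 407 at clec-260 and 326 at clec-57. The signals there were 42.3, 44.0 and 39.7, and in replicate 1 the strongest ranked signals of clec-27 and clec-212 were only 17.1 and 19.7. The points of the replicate plot scatter widely around the line of equal values, and the 3 genes called in replicate 1 all had a lower signal in replicate 2. Those 3 genes were picked by replicate 1, and clec-27 and clec-212 by replicate 2. Lower values in the other replicate follow from that choice, so these contrasts do not measure how far the replicates differ.

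**Figure D1:**
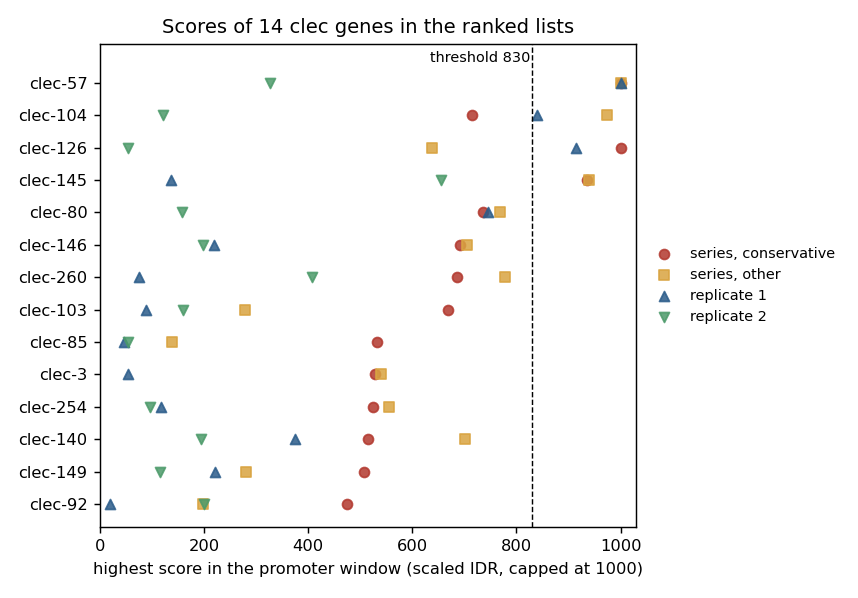
Highest score of any ranked summit in the promoter window (horizontal axis, scaled IDR, at most 1000) for 14 clec genes in 4 ranked lists, with the authors' threshold of 830 as a dashed line. Symbols stand for the lists, and at clec-57 those of both series lists and of replicate 1 coincide at 1000; all replicate 2 symbols lie below the line, the highest at 656 for clec-145, and clec-3 has none.

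Below the threshold, the clec genes with the best scores in the conservative ranked list were clec-80 (736), clec-146 (692), clec-260 (685), clec-103 (669) and clec-85 (532). The next were clec-3 (528), clec-254 (525), clec-140 (515), clec-149 (507) and clec-92 (475). The signals at these summits ran from 56.6 at clec-92 to 73.2 at clec-80. The summit of clec-80 (73.2 in the series, 41.6 in replicate 1, 31.3 in replicate 2) lay at −374 bp, in a coding exon of Y54G2A.37. In replicate 1 the nearest summit, at −445 bp in an intron of Y54G2A.37, scored 88, and a weaker one (20.4) inside clec-80 scored 745. In the other ranked series list the summit at −374 bp scored 520, and a weaker one (49.8) inside clec-80 scored 769. The summit of clec-260 (70) lay at −139 bp in intergenic sequence, and the nearest ones were stronger in replicate 2 (43.2) than in replicate 1 (27.1, with 30.6 at another summit of the window). The summit of clec-140 (63.7) was also in the windows of T05A7.6 and hmg-11. With a looser limit, an IDR of at most 0.05, 8 clec genes had a summit in the window (3.33%, exact 95% interval 1.45 to 6.46%), against 8.18% of all genes. These 8 were the 4 named above and clec-80, clec-146, clec-260 and clec-103.

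Weak candidate peaks were as common at clec genes as elsewhere. In the conservative ranked list, 191 of 240 clec genes (79.6%) had some summit in the window, against 74.1% of all protein-coding genes. The replicates' own ranked lists gave 128 clec genes in replicate 1 (53.3%, background 58.5%) and 151 in replicate 2 (62.9%, background 62.2%). Both replicates held a ranked summit for 101 clec genes (42.1%, background 45.3%), replicate 1 alone for 27 (11.2%, background 13.2%), replicate 2 alone for 50 (20.8%, background 16.9%) and neither for 62 (25.8%, background 24.6%). In 37 clec genes (15.4%, background 15.9%) none of the 4 ranked lists had a summit. Of the clec genes with a ranked summit, 1.57% were in the conservative list, whereas 5.97% of all genes with one were.

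**Figure D2:**
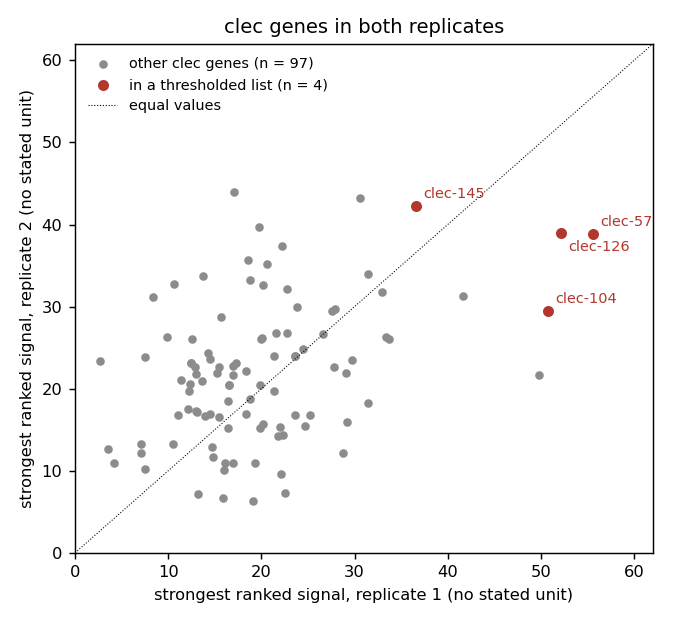
Strongest ranked signal in the promoter window in replicate 1 (horizontal axis) and replicate 2 (vertical axis, both without a stated unit) for the 101 clec genes with a ranked summit in both. Red points are the 4 genes in a thresholded list, and the dotted line marks equal values; clec-57, clec-126 and clec-104 lie below the line and clec-145 above it.

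These candidates were weaker at clec genes than at all genes by the median. The strongest ranked signal of the 191 clec genes ran from 3.81 at clec-79 to 106 at clec-57, with a median of 28.4 and quartiles of 20.4 and 39.2. The median over the 14797 genes with a ranked summit was 33.6, so the ratio of the medians was 0.844. The ratio was 0.842 in replicate 1 (17.2 against 20.4) and 0.95 in replicate 2 (20.4 against 21.5). Above the median of all genes lay 72 clec genes (37.7%), above their upper quartile 30 (15.7%) and above their top decile, which began at 64.2, 8 (4.19%). Over the 101 genes present in both replicates Spearman's rho between the signals was 0.336, and Pearson's r between their log2 values was 0.324. Over the 9055 protein-coding genes present in both, these were 0.463 and 0.575. Both are descriptions across genes of the same 2 libraries.

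**Figure D3:**
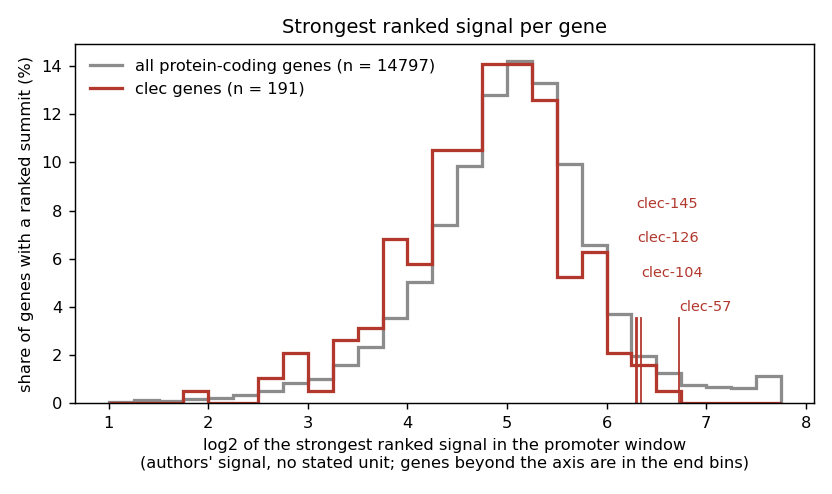
Share of genes (vertical axis, percent) by the log2 of the strongest ranked signal in the promoter window (horizontal axis, no stated unit), for 191 clec genes in red and 14797 protein-coding genes in grey. The red outline is shifted to lower values (medians 28.4 and 33.6 on the linear scale), and short lines mark the 4 clec genes in a thresholded list.

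The 3 clec genes on II beyond 13.4 Mb had higher signals than the rest of the family by the median. All 3, clec-145, clec-146 and clec-147, had a ranked summit in the window, as did 76.4% of all genes there. The median of their strongest signals was 64.3, against 28.3 for the other 188 clec genes with one. The same contrast held for all genes there, with a median of 59.0 among 233 genes against 33.4 elsewhere. In that stretch, 62 of 305 genes (20.3%) had a conservative summit, against 4.18% elsewhere. Without it, 2 of 237 clec genes (0.844%) did. The signals of clec-146 were 64.3 in the series, 31.4 in replicate 1 and 34.0 in replicate 2, and those of clec-147 were 46.9, 20.1 and 26.2. Thus clec-145 and clec-146 were above the median of the genes there and clec-147 below it.

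Conservative summits lay inside 3 of 240 clec genes (1.25%, exact 95% interval 0.259 to 3.61%), against 3.00% of all protein-coding genes. The interval holds that background, and gene lengths were not compared. The peak assigned to clec-145 was inside clec-146, a peak with a signal of 80.1 (score 947) lay in a coding exon of clec-147, 1700 bp from its 5′ end. A further peak with a signal of 71.8 (score 850) lay in an intron of clec-173 on IV, 685 bp from its 5′ end. The peaks in clec-147 and clec-173 were not in the promoter window, and 2 of the 3 genes belong to the right end of II. Within 5000 bp of a 5′ end, 18 clec genes (7.5%) had a conservative summit, against 14.6% of all genes. The median distance to the nearest one was 46700 bp for clec genes and 29900 bp for all genes.

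The family was unevenly placed. V carried 86 clec genes, IV 53, II 48, I 36, III 14 and X 3. With each autosome cut into 3 equal stretches, the outer stretches held 83.8% of the clec genes, against 53.4% of all protein-coding genes. The share of all genes with a conservative summit was 4.27% in the outer stretches, 4.48% in the centre and 4.91% on X. On V it was 2.82%, the lowest of the chromosomes, and there 1 of 86 clec genes had such a summit. On IV (4.05% of all genes) none of 53 did, on I (5.25%) none of 36, and on II (5.22%) 2 of 48. Chromosomes I, III, IV and X thus held no clec gene with a conservative summit, on III and X with only 14 and 3 members to count.

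**Figure D4:**
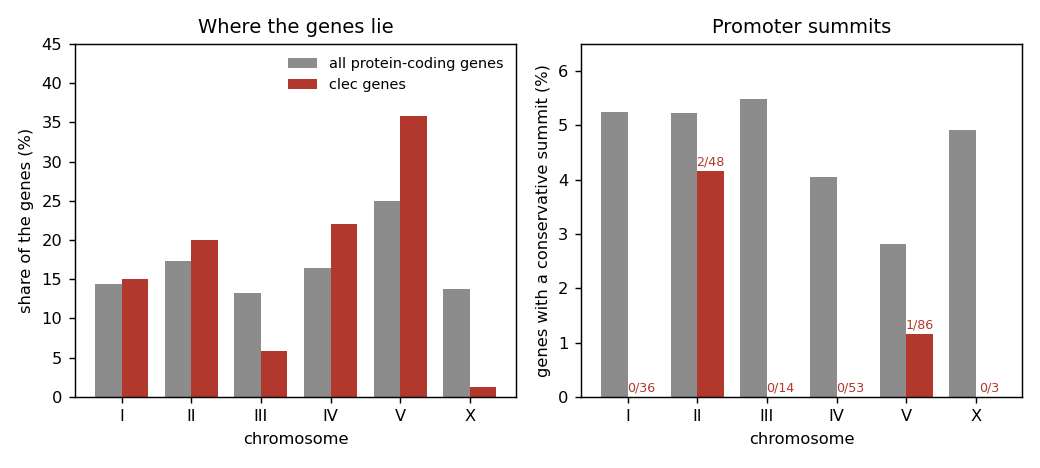
Left, share of all protein-coding genes (grey) and of clec genes (red) on each chromosome, in percent; right, percent of each with a conservative summit in the promoter window, with the counts of clec genes above the red bars. V holds 35.8% of the clec genes and 25% of all genes, and red bars above 0 appear at II (2 of 48) and V (1 of 86).

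Most clec genes stood less than 20000 bp from another clec gene. In several of the arrays formed this way the members' signals differed widely. The arrays described here were picked for a strong member, so lower values at its neighbours follow from the choice. Joining clec genes less than 20000 bp apart, on either strand and whatever genes lay between, gave 49 arrays with 164 genes. It left 76 genes alone, and no such share is given for other genes. In the array of clec-57 on V, the strongest ranked signals of its neighbours were 40.9 at clec-54, 30.7 at clec-227, 27.9 at clec-56 and 23.8 at clec-55, against 106 at clec-57. Beside clec-126 (79.2), clec-125 had 21.5. Beside clec-104 (81.6), clec-105 had 15.5 and clec-106 had 16.7. On IV, clec-80 (73.2) and clec-85 (61.5) stood at the ends of an array whose inner members had 39.8 (clec-82), 24.7 (clec-83) and 24.4 (clec-84). The array with the most genes, 13 on V from clec-40 to clec-33, had ranked summits at 10 genes, from 14.2 to 52.3 at clec-27. An array of 12 genes on IV that includes clec-67, clec-70 and clec-71 had them at all 12, from 3.81 to 60.8 at clec-78. In the pair of clec-145 and clec-146 both were high, at 78.7 and 64.3. Candidates outside any array included clec-260 (70), clec-103 (65.9), clec-140 (63.7), clec-149 (56.7) and clec-92 (56.6). These are series signals, and all of these genes were below the threshold in every list. Of the 316 ranked summits in clec windows, 16 were in the window of more than 1 clec gene and 49 (15.5%) in that of another protein-coding gene. The like share over the ranked summits of all genes was not computed, so 15.5% has no background here.

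Ranked summits of clec genes were spread over the whole window. The strongest summit lay 1 to 250 bp upstream in 31 of 191 clec genes (16.2%), against 23.2% of all genes with one. It lay more than 500 bp upstream in 76 (39.8%, against 36.7%) and from the 5′ end to 200 bp downstream in 42 (22.0%, against 19.8%). The median position was −412 bp, against −334 bp for all genes.

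**Figure D5:**
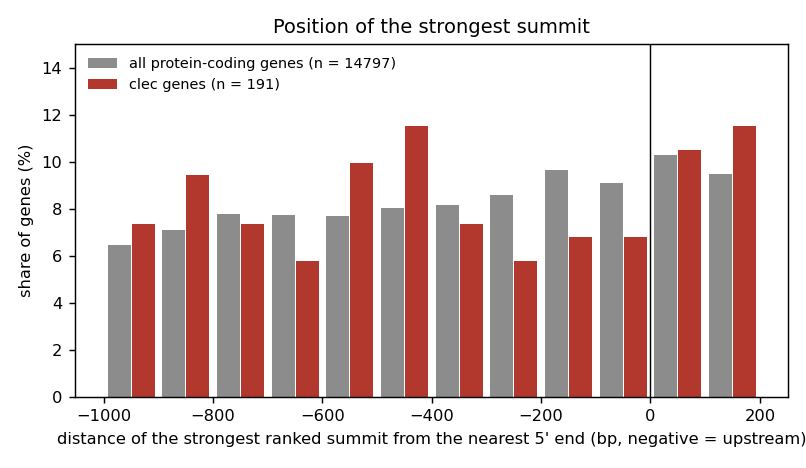
Position of the strongest ranked summit relative to the nearest 5′ end of the gene (horizontal axis, bp, negative upstream, bins of 100 bp) as a share of genes (vertical axis, percent), for 191 clec genes (red) and 14797 protein-coding genes (grey). In each of the 4 bins from −400 bp to the 5′ end the share of clec genes is the lower one.

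Of 16 clec genes known from infection, 15 (93.8%) had a ranked summit, against 74.1% of all genes, and 0 were in a thresholded list, against 5.52% of all genes. With 16 genes, a count of 0 is near that background. The strongest were clec-85, a gene regulated by the p38 kinase PMK-1 (signal 61.5 in the series, 27.9 in replicate 1 and 29.7 in replicate 2), and clec-86 (55.3, 18.8 and 33.3). They were followed by clec-42 (42.1, 8.34 and 31.2), and clec-82 (39.8, 19.8 and 20.4). The summit of clec-85 lay 52 bp downstream of the inner of its 2 annotated 5′ ends, in a coding exon. Its IDR was 0.0522 in the conservative ranked list. The same summit scored only 89 in the other ranked series list and 41 in replicate 1, and the nearest in replicate 2 scored 53. The summits of clec-86 and clec-82 lay in coding exons of ist-1 and pudl-2, and that of clec-42 in an intron of clec-246. The median of the strongest signals over these 15 genes was 34.9, above the 28.4 of the family and near the 33.6 of all genes.

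Of the other effector genes of worm immunity, 4 were in the conservative list, as were 3 immune signalling genes. Lysozyme genes (0 of 16), antibacterial factor-related genes (0 of 6), thaumatin-like genes (0 of 5), infection response genes (0 of 8) and galectin genes (0 of 12), a second family of sugar-binding proteins, had no conservative summit. Among 31 genes of saposin-like proteins, which include pore-forming antimicrobial peptides, spp-1 (74.2) and spp-13 (77.7) had one (6.45%). Among 47 genes of the cnc, fip and fipr peptide families, fipr-17 (105) and fip-1 (92.2) had one (4.26%), and the fip-1 summit lay in a tRNA gene. Among 28 immune signalling genes there were 3 (10.7%). These were zip-2 (145), which encodes a bZIP factor of the pathogen response, nipi-3 (128), which encodes a Tribbles-like pseudokinase, and hlh-30 (82.5), the TFEB homologue. A further 3 of them, elt-2, skn-1 and tir-1, were in another thresholded list only, which makes 6 of 28 in any of the 4 lists, against 5.52% of all genes. The shares with a conservative summit are to be read against 4.43% of all genes, and with counts of 0 to 3 per list their order is not established.

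Sequence features of the family were compared with those of all genes as a description. The letters TGATAA, the site of GATA factors such as the intestinal regulator ELT-2, occurred on either strand from 250 bp upstream to 50 bp downstream of the gene start in 129 of 240 clec genes (53.8%) and in 30.2% of all protein-coding genes. Matches at 2 or more places were found in 55 clec genes (22.9%), against 7.73% of all. The 129 and the remaining 111 clec genes had similar values, with ranked summits in 79.1% and 80.2%, median strongest signals of 28.4 and 28.5, and conservative summits at 2 and 1. Of all genes with and without the letters, 72.9% and 74.6% had a ranked summit and 3.6% and 4.78% a conservative one. At the summits themselves, within 75 bp, TGATAA was found for 26 of the 191 clec genes (13.6%), against 12.5% of all genes with a ranked summit. None of the 3 conservative summits of clec genes held it.

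The letters AGGTCA, the core of many nuclear receptor sites, were found within 75 bp of the strongest ranked summit in 9 of 191 clec genes (4.71%), in 4.37% of all genes and in 4.49% of the 1627 conservative summits, on either strand. In the promoters they occurred in 7.5% of clec genes and 8.27% of all genes. None of the summits of clec-57, clec-104, clec-126 and clec-145 held them. The B box start, GGTTCNA, was present in 13.4% of the conservative summits and in 7.33% of the clec windows, against 5.22% for all genes. None of these letter strings contains another. The GC content at the strongest ranked summit had a median of 39.7% for clec genes and for all genes, whereas the conservative summits had 47.7%. It was 52.3% at clec-57, 47.0% at clec-126, 43.7% at clec-145 and 57.6% at clec-104, so the 4 summits called somewhere were richer in G and C than the median clec summit. Summit sequence in 2 or more genomic copies was found at the strongest ranked summit of 11 of the 191 clec genes (5.76%). It was found at 9.9% of the conservative summits, but these are thresholded peaks and not a like background. The share over the ranked summits of all genes was not computed.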

How the data were processed

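Peak lists from 2 biological replicates of 1 group were analysed, 4 thresholded and 4 ranked, with coordinates on ce11 per the labels. Per the descriptions deposited with the files, each replicate's lists come from its own alignments and the series lists from both. What aligned the reads or called the peaks is not given in the sources used here. For each peak, the authors deposited a score (scaled IDR, at most 1000), a signal of unstated unit and, in ranked lists, the global IDR as −log10. A further 4 unnamed columns of member signals in the ranked series lists were not used. Genes came from Ensembl release 115 and sequence from the RefSeq genome of the same assembly, in which 99.9% of annotated start codons read ATG.

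Summits (column 2 plus column 10) were assigned to every gene whose window held them, so a peak can count for several genes. Shares have exact (Clopper-Pearson) 95% intervals. No test was run, since there is 1 group and the members are not replicates. The members and the gene lists were chosen with earlier results of these data known. The genes named are all clec genes in any thresholded list, the 10 next by score in the conservative ranked list, the 4 infection-linked clec genes with the highest signal, immune genes with a conservative summit and genes sharing those peaks. The clec genes named for their place, for an array or for replicate 2, and the immune genes outside the conservative list, were chosen after their values were seen, as were the arrays, tRNA distances and motifs. The assignment was tested on planted peaks. Copies are medians over 24-mers within 75 bp of the summit. Alternatives covered the lists, windows, assignment, threshold, repeats and the right end of II. Computation was in Python 3.11.15 with pandas 2.3.3, scipy 1.17.1 and numpy 2.4.6, and plots were made with matplotlib 3.10.9.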

Additional observations from a re-analysis of the deposited data

How the results depend on the processing

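The count of 3 clec genes with a conservative summit became 0 in replicate 2 and 3 in replicate 1 when the other replicate was left out. It rose to 5, with clec-147 and clec-173 added, when each summit went to the nearest 5′ end only, at any distance and without the promoter window. It fell to 1, clec-57, without summits in 2 or more copies. It stayed between 2 and 3 under the other alternatives, 2 of them without peaks within 200 bp of a tRNA gene, a choice made after the data were seen. The share of all genes was 2.11% to 6.67% under these settings and exceeded that of clec genes in each. The count with any ranked summit ran from 128 to 214, and the share of all genes from 57.1% to 83.5%. The count with a thresholded summit in both replicates was 0 under each of its alternatives. The median strongest signal of 28.4 (all genes 33.6) was 17.2 and 20.4 in single replicates (all genes 20.4 and 21.5). It was 24.8 with the window of 500 bp upstream to 100 bp downstream (29.7), 35.5 with 2000 and 500 bp (39.9), 38.9 with the nearest 5′ end (43.1) and 30.9 with peak overlap (35.4). The clec median was the lower in each. No paired analysis was possible because there is 1 group. Read depth is not known, so a missing peak is not evidence of an unoccupied promoter.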
